A study of Mus musculus with 4 samples.

Results

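The NF-kB family and its feedback inhibitors were described in T8 leukemia cells by 10 genes, of 55359 counted, that were listed by name: the subunits *Nfkb1*, *Nfkb2*, *Rel*, *Rela* and *Relb* and the inhibitors or regulators *Nfkbia*, *Nfkbie*, *Nfkbiz*, *Tnfaip3* and *Bcl3*. All 10 were found in the count table, and all 10 passed the filter on low counts. T8 is a cell line grown out of the leukemia of a single *Irf4*-/- mouse, and both groups carry the *Irf4* deletion and the *Jak3* mutation of that tumor. The cells were spun with retrovirus and polybrene, the virus coding for GFP alone (EV-RV) or for GFP and IRF4 (IRF4-RV). RNA was taken from viable cells a day later, with 2 libraries per group, which the paper describes as duplicates. The protocol labels name T11 cells where the titles and tissue labels name T8, and the share of cells that carried the virus is not given in the sources used here.

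The 5 NF-kB subunits pair with one another to form transcription factors. In the classical pathway, dimers of RELA, c-REL and p50, the product of *Nfkb1*, are held in the cytoplasm by IkB proteins until the IKK kinases mark these for destruction. In the second pathway, the kinase NIK leads to the processing of p100, the product of *Nfkb2*, to p52, which pairs with RELB. NF-kB is well known to switch on several of its own subunits and inhibitors, and in the B lineage it acts downstream of the B-cell receptor, CD40, the BAFF receptor and Toll-like receptors.

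The libraries held between 31230223 and 37817752 counts, and the limit of detection, set at 3 counts, was 0.0824 to 0.0952 CPM (counts relative to library size, after TMM scaling), which covers counting error only. *Irf4* had 8070 and 7600 counts (EV-RV), although the line is labelled *Irf4*-/-, against 95578 and 90693 (IRF4-RV), and vector and endogenous reads are not separated in these counts. Of the B-lineage markers, *Cd79a*, *Cd79b* and *Pax5* were expressed in every library, *Cd79a* for one at 916.1 ± 8.21 CPM against 906.9 ± 0.701 CPM (SD, n = 2 each), while *Rag1* had at most 1 count. Of the 8 tested, 2 were higher, *Blnk* and *Ptprc*, and 2 lower, *Vpreb1* and *Igll1*, both of which belong to the pre-B-cell receptor. This was 50% called, against 29.7% of all genes tested. The summed level of the B-lineage markers was 3447 and 3553 CPM with EV-RV against 2633 and 2573 CPM with IRF4-RV. Their median log2 fold change was -0.13. Among 12 T and NK cell markers *Cd8a*, *Cd8b1* and *Ncr1* had 0 counts in all libraries, and their summed level was between 5.66 and 6.12 CPM with EV-RV and between 7.50 and 7.85 CPM with IRF4-RV, with 1 of the 3 tested, *Cd28*, called higher. Among 13 myeloid markers *Adgre1*, *S100a8*, *S100a9* and *Siglech* had 0 counts in all libraries, and the sum was at 0.839 and 0.793 CPM against 3.04 and 2.75 CPM, and of the 2 tested *Ly6g* was higher, going from 1 and 0 counts to 71 and 58. The 12 stromal markers, of which 9 were tested and 0 were called (also 0 at an unadjusted p under 0.05, and with DESeq2 0, but 7 with the replicate number as a block), had a median log2 fold change of 0.90 and were higher in replicate 2 than in replicate 1 when summed. Their sum was 86.0 CPM in EV-RV 1 and 87.6 CPM in IRF4-RV 1, but 154.2 CPM in EV-RV 2 and 366.4 CPM in IRF4-RV 2, while *Dcn*, *Lum* and *Thy1* had at most 3 counts in each library. The part of other cells in the results was not tested.

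Of the 10 genes, 7 were higher and 0 lower with IRF4-RV (edgeR's quasi-likelihood test, adjusted p under 0.1; DESeq2 also called 7 higher and 0 lower, and 0 were lower at an unadjusted p under 0.05). Of all 14637 genes tested, 29.7% were called, 16.0% higher and 13.7% lower. The median log2 fold change was 0.98 over the 10 genes and 0.01 over all genes tested. The groups did not overlap for 9 of the 10 genes, and all 9 were higher with IRF4-RV, whereas 61.3% of all genes tested did not overlap, 31.3% on the higher and 29.9% on the lower side. The genes that were called were *Nfkb2*, *Relb*, *Rela*, *Nfkbia*, *Nfkbie*, *Nfkbiz* and *Tnfaip3*. *Bcl3*, which had only 7 and 15 counts with EV-RV, is among the genes whose groups did not overlap. With at least 10 counts required in every library, *Bcl3* was left out. Of the 9 genes then tested, 7 were higher and 0 lower, against 4274 called of all 13451 tested. With library size in place of TMM scaling, 6 were called, all higher, although the balance over all genes went from 2340 higher and 2009 lower to 1743 higher and 2867 lower. In bulk samples, a change in the share of cells that express a gene and a change in its RNA per cell cannot be told apart.

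**Figure D1:**
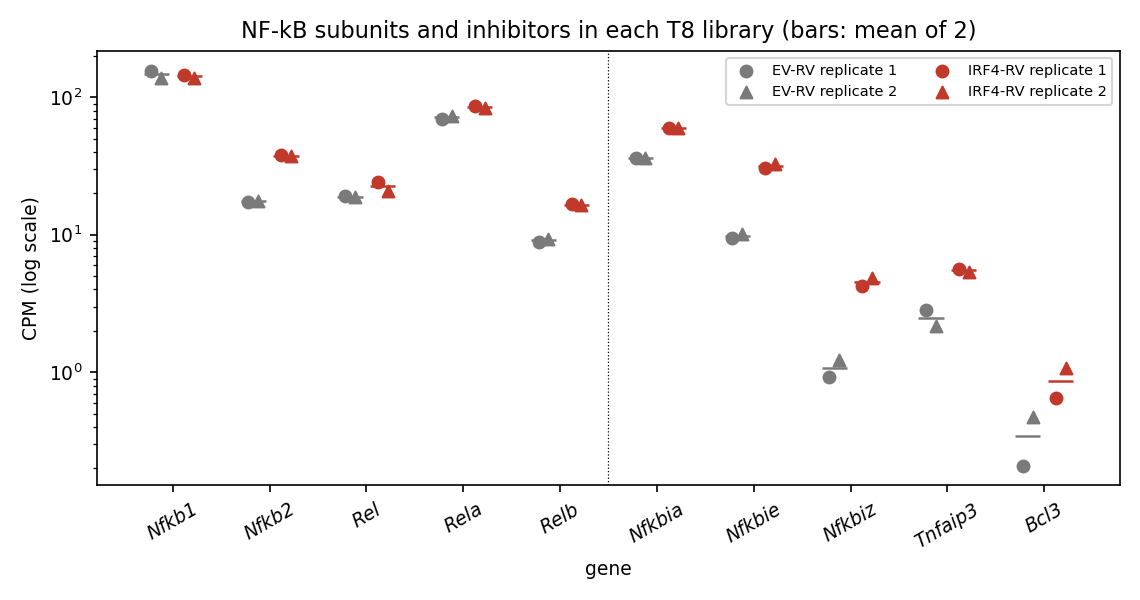
Level of each gene in each library, in CPM on a log axis, with EV-RV in grey and IRF4-RV in red, circles for replicate 1, triangles for replicate 2 and a bar at the mean of 2. The groups lie apart for every gene but *Nfkb1*, and the 2 replicates of a group lie close together except for *Bcl3*, which was at 0.210 and 0.476 CPM with EV-RV.

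Since NF-kB is known to bind the promoters of several of these genes, the 250 bases before their starts were taken from the RefSeq promoter table (GRCm38.p6), which held 10 starts of 7 of the genes. Shown are promoters of 4 genes that rose and hold a match and that of *Rela*, which was called higher as well but holds none. The promoter of *Rel*, which did not pass the cutoff but holds matches, is not shown. Capitals mark each match to the NF-kB consensus on either strand, overlapping matches run together.
Nfkb2, first of its starts (chr19:46304487-46304736, plus strand): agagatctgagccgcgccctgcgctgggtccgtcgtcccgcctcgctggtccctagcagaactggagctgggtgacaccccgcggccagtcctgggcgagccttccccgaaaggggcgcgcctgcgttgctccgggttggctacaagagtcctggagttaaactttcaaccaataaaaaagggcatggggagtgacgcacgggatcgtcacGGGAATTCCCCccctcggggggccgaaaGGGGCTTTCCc
Nfkbia (chr12:55492648-55492897, minus strand): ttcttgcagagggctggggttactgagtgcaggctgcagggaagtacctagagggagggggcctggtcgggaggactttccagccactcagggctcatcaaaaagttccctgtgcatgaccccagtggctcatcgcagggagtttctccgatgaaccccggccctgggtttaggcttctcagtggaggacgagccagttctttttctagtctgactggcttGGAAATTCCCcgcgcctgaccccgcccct
Nfkbie (chr17:45555450-45555699, plus strand): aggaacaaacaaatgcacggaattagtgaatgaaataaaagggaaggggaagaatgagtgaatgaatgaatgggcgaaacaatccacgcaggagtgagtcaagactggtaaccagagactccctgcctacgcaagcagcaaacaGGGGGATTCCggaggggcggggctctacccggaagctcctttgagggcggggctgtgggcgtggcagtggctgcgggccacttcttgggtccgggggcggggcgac
Tnfaip3, upstream start (chr10:19015411-19015660, minus strand): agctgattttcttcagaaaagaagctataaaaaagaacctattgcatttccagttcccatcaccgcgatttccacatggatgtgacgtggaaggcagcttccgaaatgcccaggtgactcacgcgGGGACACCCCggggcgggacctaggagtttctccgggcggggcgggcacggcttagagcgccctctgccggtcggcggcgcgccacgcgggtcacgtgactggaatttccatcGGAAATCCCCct
Rela (chr19:5637291-5637540, plus strand): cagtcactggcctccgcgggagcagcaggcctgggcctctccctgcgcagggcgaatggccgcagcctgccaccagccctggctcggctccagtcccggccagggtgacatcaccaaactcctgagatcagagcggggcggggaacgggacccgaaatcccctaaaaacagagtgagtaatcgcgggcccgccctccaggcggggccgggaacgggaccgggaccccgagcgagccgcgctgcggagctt

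A match to the NF-kB consensus was found for 5 of the 7 genes, *Nfkb2*, *Rel*, *Nfkbia*, *Nfkbie* and *Tnfaip3*. By promoter, it was found in 7 of the 10, against 3.90% of all 32851 promoters of the same length. Starts of the same gene are not independent. NF-kB was already known to bind several of these promoters, so the difference is not a test. In *Nfkb2* the match GGGAATTCCC, which reads the same on both strands, began 39 bases before the start, and in *Nfkbia* the match GGAAATTCCC began 29 bases before it. *Rela* and *Bcl3* had none in these windows, and *Rel*, which did not pass the cutoff, had 3 overlapping matches, counting both strands. The composite site at which IRF4 binds with PU.1 (EICE, searched as GGAA and then GAAA with 2 bases between) and the interferon response element (ISRE, searched as GAAA and then GAAA with 2 bases between), which can overlap each other, were searched on both strands as well. Each was found in 0 of the 10 promoters, against 2.30% and 2.98% of all promoters. At shares this low, 0 of 10 is a likely result, so it does not set these genes apart from all promoters. A match is a run of letters and does not show binding, and no match says nothing of sites outside these windows.

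The subunits of the second pathway were the ones that rose most. *Nfkb2* (ENSMUSG00000025225, chr19:46304320-46312385, plus strand, GRCm38), which encodes p100 and p52, had 576 and 558 counts (EV-RV) against 1287 and 1358 (IRF4-RV). In CPM this was 17.5 ± 0.307 against 37.7 ± 0.495 (SD, n = 2 each), so that both IRF4-RV libraries were far above both EV-RV libraries. The fold change was 2.15, with a log2 fold change of 1.11 ± 0.0898 (SE; adjusted p = 0.000138 by edgeR). Exons of *Nfkb2* overlap those of *Psd* and AC114539.1 on the opposite strand, and whether counting used the strand is not given in the sources used here.

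*Relb* (ENSMUSG00000002983, chr7:19606217-19629438, minus strand), whose product pairs with p52, was at 8.84 and 9.39 CPM (EV-RV) against 16.6 and 16.4 CPM (IRF4-RV). The groups lay well apart, with the replicates of each close together. The fold change was 1.81, and the log2 fold change 0.86 ± 0.108 (SE; adjusted p = 0.00121 by edgeR).

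The subunits of the classical pathway had smaller changes, of which 1, that of *Rela*, passed the cutoff. *Nfkb1* (ENSMUSG00000028163, chr3:135584655-135691547, minus strand), which encodes p105 and p50, was at 156.4 and 137.7 CPM (EV-RV) against 145.5 and 137.8 CPM (IRF4-RV). Its groups overlapped, and its log2 fold change of -0.05 ± 0.0868 (SE; adjusted p = 0.71 by edgeR) was smaller than its error. *Rela* (ENSMUSG00000024927, chr19:5637483-5648130, plus strand), which carries a strong transactivation domain, was at 70.0 and 73.0 CPM (EV-RV) against 85.9 and 82.8 CPM (IRF4-RV). It rose by a fold of 1.18, a log2 fold change of 0.24 ± 0.0771 (SE; adjusted p = 0.0623 by edgeR). This call was lost with library size only (0.15, adjusted p = 0.186), without EV-RV replicate 1 (0.20, adjusted p = 0.213), without IRF4-RV replicate 1 (0.19, adjusted p = 0.381) and without IRF4-RV replicate 2 (0.27, adjusted p = 0.195).

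*Rel* (ENSMUSG00000020275, chr11:23736847-23770970, minus strand) encodes c-REL, the subunit known for its part in B-cell activation. It was at 19.1 and 18.8 CPM (EV-RV) against 24.3 and 20.8 CPM (IRF4-RV), the groups lying apart by less than the distance between the IRF4-RV libraries. Its log2 fold change was 0.25 ± 0.109 (SE; adjusted p = 0.149 by edgeR), which did not pass the cutoff. Without IRF4-RV replicate 2 it was 0.36 (edgeR adjusted p = 0.077).

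The IkB genes *Nfkbia* and *Nfkbie* rose, while *Nfkbib*, the gene of the classical IkBβ, did not pass the cutoff (log2 fold change 0.19 ± 0.0872, SE, adjusted p = 0.176 by edgeR). *Nfkbia* (ENSMUSG00000021025, chr12:55489410-55492647, minus strand), which encodes IkBα, the inhibitor that is rapidly destroyed and made again after stimulation, was at 35.9 and 36.0 CPM (EV-RV) against 59.8 and 59.5 CPM (IRF4-RV). The 2 libraries of each group were nearly equal. The fold change was 1.66, a log2 fold change of 0.73 ± 0.081 (SE; adjusted p = 0.00064 by edgeR). *Nfkbie* (ENSMUSG00000023947, chr17:45555703-45563169, plus strand), which encodes IkBε, had 315 and 317 counts (EV-RV) against 1044 and 1192 (IRF4-RV), or 9.44 and 10.1 CPM against 30.8 and 32.7 CPM. Both IRF4-RV libraries were at about 3 times the level of the EV-RV libraries. The fold change was 3.26, a log2 fold change of 1.71 ± 0.101 (SE; adjusted p = 2.93e-05 by edgeR), and among the 10 genes this was the smallest adjusted p.

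The atypical IkB genes were at low levels. *Nfkbiz* (ENSMUSG00000035356, chr16:55811375-55838899, minus strand) encodes IkBζ, a nuclear protein that acts with NF-kB at a subset of its targets. It had 31 and 39 counts (EV-RV) against 143 and 177 (IRF4-RV), or 0.929 and 1.24 CPM against 4.22 and 4.86 CPM. Its fold change of 4.19 was the largest of the 10 genes, with a log2 fold change of 2.07 ± 0.243 (SE; adjusted p = 0.000871 by edgeR). *Bcl3* (ENSMUSG00000053175, chr7:19808462-19822770, minus strand), whose product binds p50 and p52 dimers in the nucleus, had 7 and 15 counts (EV-RV) against 22 and 39 (IRF4-RV). The 2 groups did not overlap in CPM, but replicate 2 was above replicate 1 in each group, and the log2 fold change of 1.33 had a standard error of 0.533 (edgeR adjusted p = 0.12), which did not pass the cutoff. Leaving out single libraries moved it between 0.84 and 2.02, and without IRF4-RV replicate 1 it was 1.62 (edgeR adjusted p = 0.0679). Exons of *Bcl3* overlap those of *Gm16175* on the opposite strand.

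*Tnfaip3* (ENSMUSG00000019850, chr10:19000910-19015657, minus strand) encodes A20, an enzyme that edits ubiquitin chains and limits signals to IKK. It had 94 and 68 counts (EV-RV) against 190 and 196 (IRF4-RV), or 2.82 and 2.16 CPM against 5.61 and 5.38 CPM. The fold change was 2.21, a log2 fold change of 1.14 ± 0.198 (SE; adjusted p = 0.00528 by edgeR). Both IRF4-RV libraries were above both EV-RV libraries by more than the distance between the latter.

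**Figure D2:**
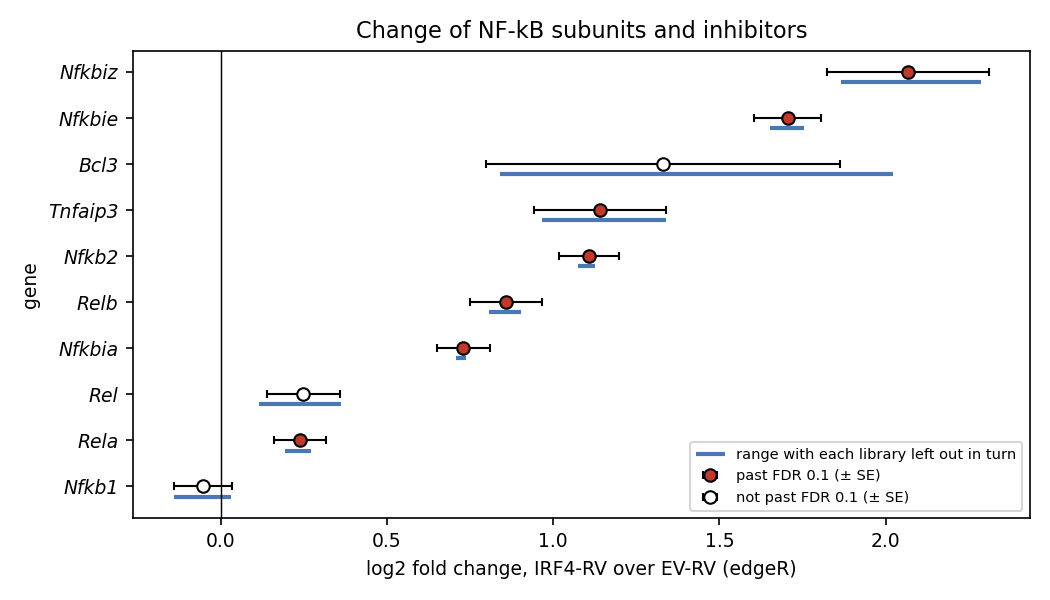
Log2 fold change of IRF4-RV over EV-RV for each gene with its standard error (edgeR, 2 libraries per group), filled where the adjusted p was under 0.1, and below each point the range over fits that leave out one library. *Nfkbiz* at 2.07 and *Nfkbie* at 1.71 lie at the top and *Nfkb1* at -0.05 at the bottom, and only the range of *Nfkb1*, from -0.14 to 0.03, includes 0.

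*Nfkbie*, *Nfkbiz* and *Bcl3* were higher in replicate 2 than in replicate 1 of both groups, as were the stromal markers. Between the libraries numbered 1, in which the stromal sum was nearly equal, the log2 ratio of IRF4-RV to EV-RV was 2.18 for *Nfkbiz*, 1.63 for *Bcl3*, 1.71 for *Nfkbie*, 1.14 for *Nfkb2*, 0.91 for *Relb*, 0.74 for *Nfkbia*, 0.99 for *Tnfaip3*, 0.34 for *Rel*, 0.30 for *Rela* and -0.10 for *Nfkb1*. These ratios have no replicate and were chosen after seeing the data. Without IRF4-RV replicate 2, the library with the highest stromal sum, 7 of the 10 genes were called, with *Rel* in place of *Rela*.

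Levels were compared between the genes per length, as RPKM (CPM per kilobase of exon, from the union of the exons in GENCODE M21). On this scale *Rela* was the highest subunit, at 23.3 ± 0.697 RPKM (SD, n = 2) with EV-RV and 27.5 ± 0.703 RPKM (SD, n = 2) with IRF4-RV. With EV-RV it was followed by *Nfkb1* at 12.2 ± 1.10, *Nfkb2* at 3.81 ± 0.0670, *Rel* at 2.54 ± 0.0297 and *Relb* at 2.35 ± 0.0995 RPKM (SD, n = 2 each), where *Rel* and *Relb* lay close together. With IRF4-RV *Nfkb2* was at 8.21 ± 0.108, *Relb* at 4.25 ± 0.0361 and *Rel* at 3.02 ± 0.327 RPKM (SD, n = 2 each), so that *Relb* was above *Rel*. *Nfkbia*, at 22.3 ± 0.0675 RPKM (SD, n = 2), was near *Rela* with EV-RV, and at 37.0 ± 0.131 RPKM (SD, n = 2) it was above *Rela* with IRF4-RV. *Nfkbiz*, *Tnfaip3* and *Bcl3* stayed under 1 RPKM in every library.

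*Nfkb2* and *Relb* made up more of the subunit transcripts in the IRF4-RV libraries, and *Nfkb1* less. Of the summed RPKM of the 5 subunits, *Nfkb2* made up 8.49% and 8.78% (EV-RV) against 14.8% and 15.2% (IRF4-RV), and *Relb* 5.13% and 5.49% against 7.66% and 7.90%. *Nfkb1* made up 29.2% and 26.0% (EV-RV) against 21.6% and 21.3% (IRF4-RV). For these 3 genes the groups did not overlap (exact two-sided permutation p = 0.333 each, the smallest that 2 against 2 libraries can give). By this length the same held for the lower share of *Rela*. The share of *Rela*, between 51.4% and 54.0% with EV-RV and between 50.1% and 50.4% with IRF4-RV, and that of *Rel*, between 5.21% and 5.82% in all libraries, turned their direction with other ways of setting the length. With the length of the principal transcript, chosen after seeing the data, *Nfkb1* in place of *Rela* had the largest share, 48.0% with EV-RV and 39.1% with IRF4-RV, so the order of these 2 genes depends on the length used. The *Nfkb2* and *Relb* shares were higher and the *Nfkb1* share was lower with IRF4-RV by each length tried.

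Relative to the subunits they hold, *Nfkbia* and *Nfkbie* had more transcripts with IRF4-RV. The summed RPKM of *Nfkbia* and *Nfkbie* over that of *Rela*, *Rel* and *Nfkb1* was 0.663 and 0.681 (EV-RV) against 1.09 and 1.16 (IRF4-RV). The log2 ratio differed by 0.74 (exact two-sided permutation p = 0.333, the smallest that 2 against 2 libraries can give). The ratio leaves out *Nfkbib*, at 14.6 ± 0.212 RPKM with EV-RV and 16.6 ± 0.599 RPKM with IRF4-RV (SD, n = 2 each). With it the ratio was 1.04 and 1.07 (EV-RV) against 1.47 and 1.57 (IRF4-RV), and the log2 ratio differed by 0.52 (exact two-sided permutation p = 0.333), a choice made after seeing the data. The level of these ratios depends on the lengths and genes used, so a value above or below 1 has no meaning of its own. These are ratios of RNA, and proteins were not analysed here.

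**Figure D3:**
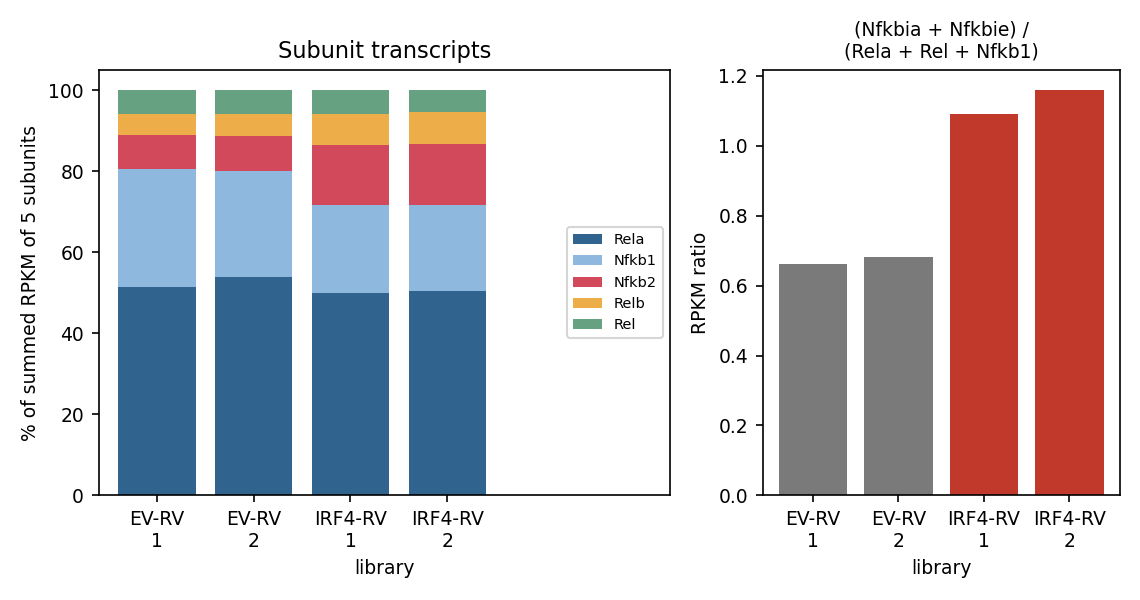
Left, share of each subunit in the summed RPKM of the 5 subunits, one bar per library. Right, ratio of the summed RPKM of *Nfkbia* and *Nfkbie* over that of *Rela*, *Rel* and *Nfkb1*, one bar per library, which was under 0.7 in the EV-RV libraries and above 1 in the IRF4-RV libraries. The level of this ratio, unlike the direction of its change, depends on the lengths and genes used.

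The genes around NF-kB were described by lists of known roles. Of 13 IKK and TBK1 kinases and their partners, 2 were higher and 1 lower, with a median log2 fold change of 0.07. This was 23.1% called, below the 29.7% of all genes tested. The 3 parts of the IKK complex did not pass the cutoff, although without EV-RV replicate 2 *Ikbkb* was called lower (-0.32, edgeR adjusted p = 0.0935). *Chuk* (IKKα) was at 39.5 ± 0.271 CPM with EV-RV and 40.7 ± 0.252 CPM with IRF4-RV, *Ikbkb* (IKKβ) at 51.5 ± 9.23 against 46.3 ± 3.96 CPM and *Ikbkg* (NEMO) at 44.9 ± 0.879 against 47.9 ± 0.0296 CPM (SD, n = 2 each). *Map3k14*, which encodes NIK, rose from 86 and 36 counts to 169 and 122, a log2 fold change of 1.16 ± 0.374 (SE; adjusted p = 0.0628 by edgeR), a call that was lost with library size only (1.06, adjusted p = 0.109) and without EV-RV replicate 2 (0.69, adjusted p = 0.179). *Tank* rose by 0.45 on the log2 scale (edgeR adjusted p = 0.0174), and *Tbkbp1* fell by 0.51 (edgeR adjusted p = 0.0568), a call lost with DESeq2 (-0.52, adjusted p = 0.122) and without EV-RV replicate 1 (-0.33, adjusted p = 0.276).

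Of 19 receptor adaptors and ubiquitin ligases, 9 were higher and 0 lower (0 lower with DESeq2 or at an unadjusted p under 0.05 as well, but 7 higher and 1 lower without IRF4-RV replicate 1), and the median log2 fold change was 0.27. This was 47.4% called, against 29.7% of all genes tested. With at least 10 counts required in every library, 18 were tested, of which 7 were higher and 0 lower (4274 of all 13451 genes tested were called). *Irak2*, a kinase of Toll-like receptor signaling, rose by 1.43 (edgeR adjusted p = 0.00126) and *Traf5* by 1.33 (edgeR adjusted p = 0.000142) on the log2 scale. *Birc3*, the ubiquitin ligase cIAP2, went from 12.1 ± 0.147 to 20.8 ± 1.83 CPM (SD, n = 2 each), for a log2 change of 0.78 (edgeR adjusted p = 0.00196), and *Rnf31*, which encodes HOIP, changed by 0.48 (edgeR adjusted p = 0.00742). *Traf2* and *Traf3*, which keep NIK low in resting cells, had log2 fold changes of -0.02 and -0.17 and did not pass the cutoff (edgeR adjusted p = 0.91 and 0.448). Without IRF4-RV replicate 1, *Traf3* was called lower (-0.39, edgeR adjusted p = 0.0766). *Traf1* had 4 and 4 counts (EV-RV) against 20 and 14 (IRF4-RV), and its log2 fold change of 1.95 (edgeR adjusted p = 0.049) was not called without EV-RV replicate 1 (1.90, adjusted p = 0.259), EV-RV replicate 2 (1.99, adjusted p = 0.246) or IRF4-RV replicate 1 (1.59, adjusted p = 0.329). *Rnf31* overlaps *Irf9* on the same strand, as *Traf5* does *Mir3473c* and *Map3k14* does *1700028N14Rik*. The reads of these genes could have been mixed.

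Of 17 other inhibitors of NF-kB, 15 were tested, 4 were higher and 0 lower (0 lower with DESeq2 or at an unadjusted p under 0.05 as well), and the median log2 fold change was 0.20. This was 26.7% called, close to the 29.7% of all genes tested. *Tax1bp1*, a partner of A20, rose by 0.85 on the log2 scale (edgeR adjusted p = 0.00102). *Cyld*, which removes ubiquitin chains, went from 59.2 ± 1.45 to 74.8 ± 3.44 CPM (SD, n = 2 each), for a log2 change of 0.34 (edgeR adjusted p = 0.0205, and 0.186 without IRF4-RV replicate 1). The values were 0.41 for *Pdlim2* (edgeR adjusted p = 0.0293, not called without EV-RV replicate 1, at 0.111, or IRF4-RV replicate 2, at 0.175) and 0.51 for *Zc3h12a* (edgeR adjusted p = 0.0855). The call of *Zc3h12a* was lost with DESeq2 (adjusted p = 0.192), with library size only (0.173) and without EV-RV replicate 1 (0.103), EV-RV replicate 2 (0.27) or IRF4-RV replicate 1 (0.413). *Nfkbib* (IkBβ) at 0.19, *Nfkbid* (IkBNS) at 0.52 and *Tnip1* at 0.25 did not pass the cutoff (edgeR adjusted p = 0.176, 0.167 and 0.183).

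Of 24 receptors that signal to NF-kB, 14 were tested. Among these, 8 were higher and 1 lower (64.3% called, against 29.7% of all genes tested), with a median of 0.77. A gene could pass the filter through either group alone, as *Cd40* did through IRF4-RV. With at least 10 counts required in every library, 12 were tested, of which 5 were higher and 1 lower. That setting called 4274 of all 13451 genes tested. *Tnfrsf13c*, the BAFF receptor, which signals through NIK, rose from 15.9 ± 0.333 to 53.3 ± 1.86 CPM (SD, n = 2 each), for a log2 change of 1.74 (edgeR adjusted p = 1.72e-05). *Cd40*, another receptor that signals through NIK, had at most 2 counts in the EV-RV libraries and was at 2.53 ± 0.0719 CPM (SD, n = 2) with IRF4-RV, at least 27.4-fold above a level of 3 counts per library (edgeR adjusted p = 0.000416). *Tlr9* rose by 1.13 (edgeR adjusted p = 0.000192), *Tnfrsf1b*, a receptor for TNF, by 0.78 (edgeR adjusted p = 0.000491) and *Tnfrsf13b*, which encodes TACI, by 0.77 (edgeR adjusted p = 0.000217) on the log2 scale, whereas *Tlr4* fell by 0.66 (edgeR adjusted p = 0.00758).

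The known targets of NF-kB moved in both directions. Of 40 targets 23 were tested. Among these, 10 were higher and 5 lower (65.2% called, against 29.7% of all genes tested), with a median of 0.20. Some, such as *Slc2a6*, passed the filter through the IRF4-RV libraries alone. With at least 10 counts required in every library, 19 were tested, of which 8 were higher and 5 lower (4274 of all 13451 genes tested were called). *Ccr7*, a homing receptor, rose from 46.0 ± 2.54 to 318.7 ± 1.28 CPM (SD, n = 2 each), for a log2 change of 2.79 (edgeR adjusted p = 1.38e-06). *Slc2a6*, a sugar transporter, went from 4 and 4 counts to 110 and 147 (log2 fold change 4.84, edgeR adjusted p = 8.25e-05), and the chemokine *Ccl3* changed by 1.65 (edgeR adjusted p = 4.94e-05). *Lta*, which encodes lymphotoxin alpha, fell from 49.9 ± 3.26 to 14.4 ± 0.936 CPM (SD, n = 2 each), for a log2 change of -1.79 (edgeR adjusted p = 2.47e-05). *Myc* had a log2 fold change of -1.09 (edgeR adjusted p = 0.000133), and *Ltb*, which encodes lymphotoxin beta, one of -0.54 (edgeR adjusted p = 0.0222). Of the 17 targets not tested, *Il12b*, *Bcl2a1a*, *Cd86* and *Elf3* had 0 counts in all libraries.

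A separate list held 16 targets that interferon also induces, of which 11 were tested. Among these, 7 were higher and 1 lower (72.7% called, against 29.7% of all genes tested), with a median of 0.98. With at least 10 counts required in every library, 10 were tested, of which 6 were higher and 1 lower (4274 of all 13451 genes tested were called). *Gbp2* rose by 2.05 (edgeR adjusted p = 2.28e-05), *Irf7* by 1.93 (edgeR adjusted p = 4.53e-05) and *Irf1* by 1.38 (edgeR adjusted p = 5.51e-05) on the log2 scale. *Sod2*, a mitochondrial superoxide dismutase, fell by 0.30 (edgeR adjusted p = 0.03), a call lost without EV-RV replicate 2 (adjusted p = 0.11), IRF4-RV replicate 1 (0.103) or IRF4-RV replicate 2 (0.161).

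**Figure D4:**
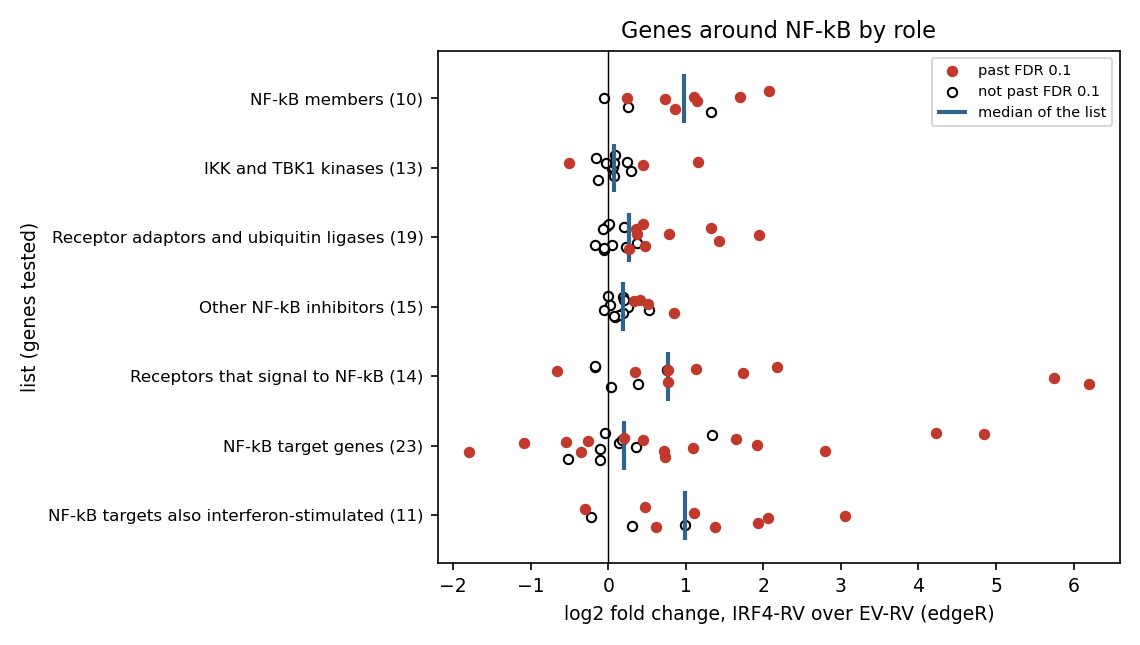
Log2 fold change of IRF4-RV over EV-RV for each gene tested, by list, red where the edgeR adjusted p was under 0.1, with a blue line at the median of each list. The medians run from 0.07 for the IKK and TBK1 kinases to 0.98 for both the NF-kB subunits and inhibitors and the targets that interferon also induces, and the targets spread from -1.79 for *Lta* to 4.84 for *Slc2a6*.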

How the data were processed

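Sample titles gave each library's group and number. According to the study's methods and the submitters' processing notes, the authors used STAR 2.4.0j for alignment to GRCm38 and featureCounts for counting. The gene counts were deposited raw, and the settings for strand and multi-mapping reads are not given in the sources used here. Symbols, coordinates and exon lengths came from GENCODE M21 (GRCm38), which matched 52083 of 55359 identifiers. Depth is given with the results.

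All genes passing filterByExpr were tested with edgeR 4.0.16 (TMM, quasi-likelihood F test, Benjamini-Hochberg adjustment over all genes, FDR 0.1) in R 4.3.3, without a replicate block. The p-values measure the spread between these libraries, and separate cultures are not named in the labels. Standard errors are the log2 fold change over the root of F. The procedure was tested on simulated data, where the share of false calls was above the nominal FDR. Alternatives were DESeq2 1.42.0, other scaling, other filters, an FDR of 0.05, the replicate block, leaving out each library and other lengths.

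The genes and lists were chosen with earlier results of these data known. Beyond the 10 genes, 14 pathway genes were named whatever their values, as were up to 3 higher and 3 lower genes per list with the largest change and a mean of at least 50 counts. Other genes were named after their values were seen. One further pathway list and a marker gene are not reported here.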

Additional observations from a re-analysis of the deposited data

How the results depend on the processing

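Over 99 refits of the 10 genes (the FDR of 0.05 not counted), 89 kept direction and side of the cutoff, 4 lost the call, all for *Rela*, and 5 gained it. The exception in direction was *Nfkb1*, which ranged from -0.14 to 0.032 over fits that leave out one library, the latter without EV-RV replicate 1. The number of the 10 genes called was between 6 and 9 under all settings. Same-numbered libraries deviated together from their group means (r = 0.284 across genes, which are not independent), but share only a number in the labels. With the replicate block, 9 of the 10 genes, all but *Nfkb1*, and 6394 genes in all were called, and so were 8 of the other inhibitors, along with 7 of the stromal markers. Among the other inhibitors *Tnip1* (edgeR adjusted p = 0.0401), *Nfkbib* (0.0816), *Otulin* (0.0284) and *Rnf11* (0.0619) gained the call. *Rel* had an edgeR adjusted p of 0.0417 and *Bcl3* one of 0.0281 with the block.

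The cause of the following was not tested. At an FDR of 0.05, 1 of the IKK and TBK1 kinases was called. Leaving out one library, where the single library left in a group is assumed to vary like the other group, the numbers called ranged from 3573 to 3646 for all genes, 6 to 7 for the 10 genes and 2 to 3 for the other inhibitors, the 2 without EV-RV replicate 1 or IRF4-RV replicate 1. With library size only, the log2 fold change of *Chuk* turned to -0.0443. Without one library they turned to 0.0332 for *Ikbkb* (EV-RV replicate 1, range from -0.32), 0.00649 for *Traf2* (IRF4-RV replicate 1, range from -0.061) and 0.0179 for *Traf3* (IRF4-RV replicate 2, range from -0.39).

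The differences in subunit share, in percentage points, were -6.13 for *Nfkb1*, 6.39 for *Nfkb2*, -0.24 for *Rel*, -2.49 for *Rela* and 2.47 for *Relb*. With median transcript length they were 3.28 for *Nfkb2*, 0.0374 for *Rel*, 0.957 for *Rela* and 1.48 for *Relb*. With no length correction they were -8.84 for *Nfkb1*, 5.82 for *Nfkb2*, 0.253 for *Rel*, 0.765 for *Rela* and 2.00 for *Relb*, and the log2 ratio of inhibitors to subunits differed by 0.935. With the principal transcript, they were -8.94, 6.13, 0.00845, -0.153 and 2.95 in the same order, and the log2 ratio differed by 0.84. With *Nfkbib* among the inhibitors, it differed by 0.52. Without IRF4-RV replicate 2 the *Rel* share differed by 0.0699 and without IRF4-RV replicate 1 by -0.543. With 2 libraries per group, changes near the size of that of *Rela* are at the limit of what can be called.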
